A study of Caenorhabditis elegans with 7 samples.

Results

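The later hours of a heat exposure, 8, 10 and 12 h at 30 °C, were set against the earlier hours, 2, 4 and 6 h at 30 °C, in adult Caenorhabditis elegans of strain CF512. This comparison took 6 of the 7 arrays of the time course, 3 late and 3 early. The array for 0 h entered no fit. Per the labels, the worms had grown up at 25 °C, a temperature at which the strain is sterile, and the shift to 30 °C was the stress. All 6 groups of this comparison therefore share the strain, the sterile adult stage, the earlier growth at 25 °C and the heating, and by the labels they differ in its length. The series has no unheated array at 2 to 12 h. The length of heating therefore cannot be told apart from worm age or anything else that changes over those hours. Total RNA of whole animals was hybridised on two-colour spotted arrays against a common reference RNA named HS1, with 1 array for each hour. Whole adults hold all tissues, and fewer cells of a type and less RNA per cell cannot be told apart in such samples.

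Worms kept at 30 °C live close to the upper end of the temperatures they tolerate. The transcription factor HSF-1 switches on genes for chaperones such as HSP70 when proteins begin to unfold, and in many animals that first wave wanes while the heat goes on. Much of the metabolism of an adult worm goes on in the intestine, which digests food, keeps fat and makes yolk. Early and late hours of one exposure can thus carry different transcripts, and which ones they were is the question of this comparison.

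Each value is the deposited ratio of an array, taken as a log2 ratio and centred on the median of its array, so it gives no absolute level. Neither the base of the logarithm nor the direction of the ratio is stated for these arrays. The direction was taken as worm RNA over reference, because the HSP70 genes F44E5.4 and F44E5.5 had their lowest values at 0 h, at the limit of the file. With the sign turned, every higher and lower below changes places. Between 16143 and 16691 of the 19200 probes had a value on a heated array, and 13478 features had one on all 6, made up of 5377 named genes and 8101 unnamed probes. No hour has a replicate, and no source states how worms were pooled. The SD within a window, the standard error (SE) and the p-values therefore measure how much the hours of a window differ from each other, and this spread may be technical or may be time itself. The number of arrays limits the precision.

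No feature passed the test between late and early hours. With limma, 0 of 13478 features were higher and 0 were lower at a Benjamini-Hochberg adjusted p under 0.05 (0% in each direction), and the lowest adjusted p was 0.210, shared by 17 features. At an unadjusted p under 0.05 there were 1467 features (10.9%), of which 627 were higher (4.65%) and 840 lower (6.23%) in the late hours. All differences below are given as measured, and none of them passed this test. A straight line fitted over 2 to 12 h, tried as an alternative, called 51 features higher with time (0.378%) and 105 lower (0.779%). Of those 156 features, 138 had late and early values that did not overlap, where 15.9% of all features had none. The line and the windows rest on the same values, and a steady trend parts the windows. The count is therefore no separate support.

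The late and early values did not overlap for 2144 features (15.9%). In 1019 of them all 3 late values lay above all 3 early values (7.56%), and in 1125 all 3 lay below (8.35%). Few of these gaps were large. The late mean lay at least 1 log2 unit above the early mean, with no overlap, for 79 features (0.586%), 44 of them named genes, and at least 1 log2 unit below for 151 features (1.12%), 73 of them named genes. At 2 log2 units or more, 3 and 8 features were left. These large differences without overlap were singled out after it was seen that nothing passed the test. With 1 array left out the counts depend on which one it is, and they are looser, since fewer values must be kept apart. Without the 6 h array they were 183 higher and 293 lower, without 8 h 155 and 304, without 4 h 119 and 192, without 10 h 133 and 172, without 12 h 100 and 147, and without 2 h 69 and 114. Over all features the median difference was 0.01, the late mean lay above the early mean for 51.3%, and the median SE was 0.22. The median SD within a window was 0.24 in the late hours and 0.24 in the early hours.

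By the SD of their differences, the arrays did not fall into a late and an early block. The SD over features of the difference between 2 arrays was 0.482 to 0.546 among the late arrays and 0.478 to 0.515 among the early arrays. A late array paired with an early one gave values from 0.451 to 0.678. The smallest of all 15 pairs was 8 h against 6 h, which straddles the border, and the largest was 12 h against 2 h. The median over pairs grew with the hours between them, with 0.482 at 2 h apart, 0.512 at 4 h, 0.572 at 6 h, 0.605 at 8 h and 0.678 at 10 h. Across features, which are not independent replicates, the correlation was 0.41 to 0.51 among late arrays and 0.32 to 0.37 among early arrays. Between late and early arrays it ran from 0.05 for 12 and 2 h to 0.50 for 8 and 6 h. The highest of all was 0.51, for 10 and 8 h. Each late pair correlated more than each early pair, but the late arrays formed no block of their own. The early 6 h array correlated more with 8 h (0.50) and 10 h (0.47) than 12 h did with 8 h (0.41). The SD over features of a single array ran from 0.42 at 4 h to 0.53 at 12 h, which also enters the SD of its pairs.

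**Figure D1:**
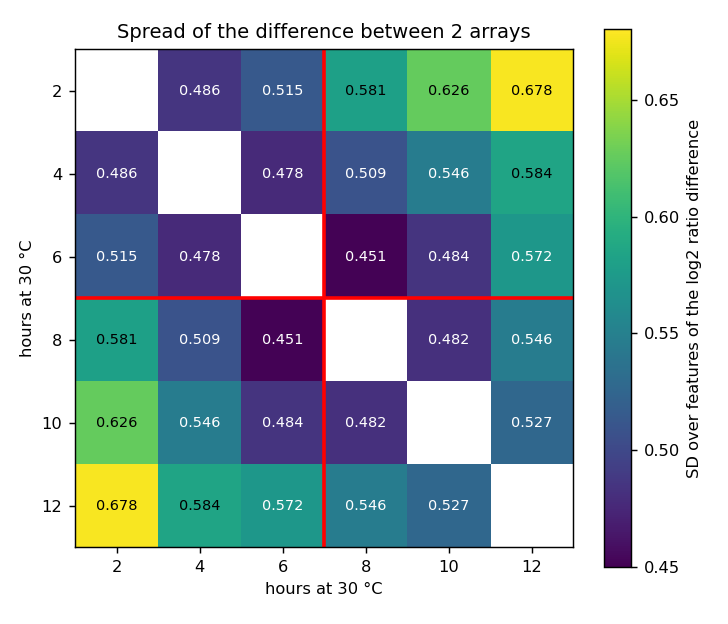
SD over 13478 features of the centred log2 ratio difference between each pair of heated arrays, with hours at 30 °C on both axes and red lines between the early and the late hours. The pair of 8 h and 6 h has the smallest value, 0.451, and the pair of 12 h and 2 h the largest, 0.678.

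Among named genes without overlap, the largest positive differences belonged mostly to genes known only by their sequence names. Named genes are a selected part of the array, since 11300 of the 19200 probes carry no name. Cytochromes P450, glutathione transferases, histones and nuclear hormone receptors each had 0 genes on the array by name. The kind of names found here may thus reflect which probes are named. F56H6.2 had 0.21, 0.54 and 2.46 at 8, 10 and 12 h, against -1.40, -1.43 and -0.59 at 2, 4 and 6 h. Its late mean was 2.21 above the early mean (SE 0.55; 3 arrays against 3; limma adjusted p = 0.260), which is 4.64-fold if the base is 2. The 12 h array held the highest value, and the 8 and 10 h values already stood above every early one.

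M01E5.2 had 1.21, 1.46 and 1.93 at 8, 10 and 12 h, against -2.13, -0.28 and 0.42 at 2, 4 and 6 h, a difference of 2.20 (SE 0.57; limma adjusted p = 0.262). Each early value lay nearer to the late ones than the value before it, and without the 2 h array the difference was 1.46. F08G2.5 behaved alike, with 0.95, 1.45 and 1.33 at 8, 10 and 12 h, against -1.81, -0.79 and 0.70 at 2, 4 and 6 h (difference 1.88, SE 0.54; limma adjusted p = 0.309). In both genes the largest step lay among the early hours and not between 6 and 8 h.

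W09G3.1 showed the opposite form. It had 1.41, 0.95 and 1.14 at 8, 10 and 12 h, against -1.28, -0.15 and -0.53 at 2, 4 and 6 h, and its largest step lay between 6 and 8 h. The difference of 1.82 had an SE of 0.29 and shared the lowest adjusted p of the comparison (limma adjusted p = 0.210). C33A12.4 had 0.48, 1.26 and 1.02 at 8, 10 and 12 h, against -1.41, -1.36 and -0.07 at 2, 4 and 6 h (difference 1.87, SE 0.38; limma adjusted p = 0.260). The pseudogene K03D7.9 had 0.25, 0.44 and 1.17 at 8, 10 and 12 h, against -3.22, 0.08 and -0.41 at 2, 4 and 6 h. Its difference of 1.80 (SE 0.75; limma adjusted p = 0.443) rests on the 2 h array, without which it was 0.79. The other members of the 10 highest were F58G1.7 (1.74), R03H10.6 (1.71), T27C5.10 (1.66) and K07F5.7 (1.63). R03H10.6 and T27C5.10 stood close to 0 at 8 h, with 0.10 and -0.02, and reached 1.06 and 0.80 at 10 h.

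The largest negative difference was that of T22F3.11. It had -1.08, -3.54 and -2.998 at 8, 10 and 12 h, against 1.08, 0.87 and -0.63 at 2, 4 and 6 h. The late minus early difference was -2.98 (SE 0.66; limma adjusted p = 0.260), 7.91-fold lower if the base is 2. With 10 and 12 h set against 2 and 4 h the difference was -4.25, and T22F3.11 was then the one feature to pass (limma adjusted p = 0.0499, with 0.0179 to 0.626 over its 17 alternatives).

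C35C5.9 had -1.33, -2.17 and -2.40 at 8, 10 and 12 h, against 0.68, 0.01 and -0.35 at 2, 4 and 6 h (difference -2.08, SE 0.35; limma adjusted p = 0.210). Each value lay below that of the hour before. The same held for F45D3.4, with -1.26, -1.47 and -2.10 at 8, 10 and 12 h, against 1.28, 0.32 and -0.57 at 2, 4 and 6 h (difference -1.96, SE 0.44; limma adjusted p = 0.260). T05E12.3 lay below 0 on every heated array, with -1.77, -2.83 and -2.74 at 8, 10 and 12 h, against -0.33, -0.73 and -1.26 at 2, 4 and 6 h, a difference of -1.68. E01A2.8 (-1.88), F23H12.5 (-1.69) and T19B10.2 (-1.64) were also among the 10 lowest. F23H12.5 still stood at -0.28 at 8 h and had -2.01 and -2.08 at 10 and 12 h, so its late values were split. Over the 10 highest and the 10 lowest genes, the SE ran from 0.29 to 0.75 and from 0.27 to 0.66, and the limma adjusted p from 0.210 to 0.443 and from 0.210 to 0.322. Each of these 20 genes kept its direction in all 17 alternatives, but most of these could not have turned it. The genes were chosen for windows without overlap. Their sign is then fixed with an array left out, in the line, with the covariate or prior, and for 10 and 12 h against 2 and 4 h. The straight line over 2 to 12 h called 8 of the 10 highest and 8 of the 10 lowest, from the same values that chose them.

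**Figure D2:**
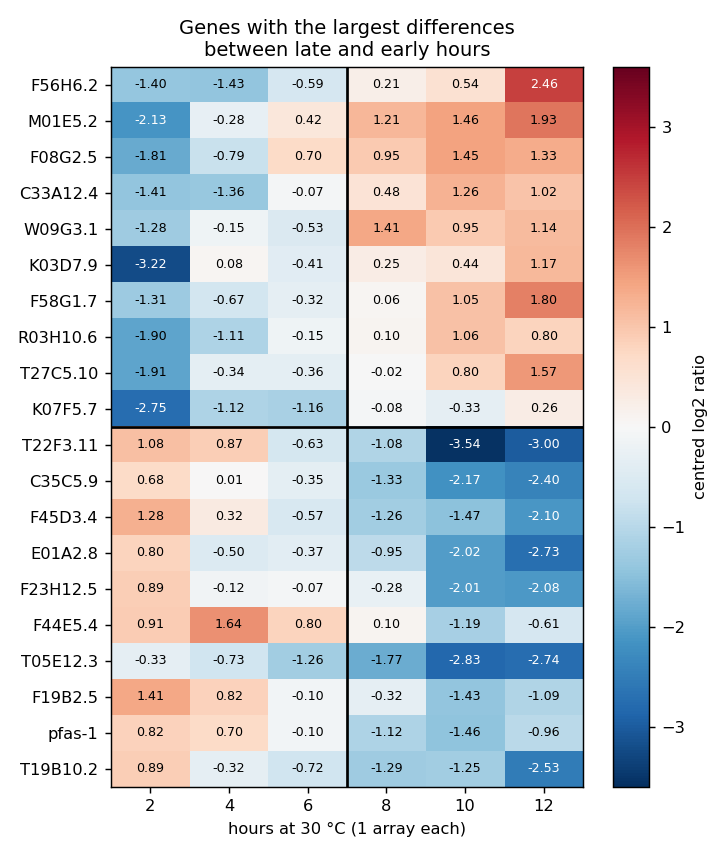
Centred log2 ratio at each hour at 30 °C, 1 array each, for the 10 named genes with the highest (upper block) and the 10 with the lowest (lower block) late minus early difference among genes whose late and early values do not overlap. The vertical line parts early from late hours. T22F3.11 reaches -3.54 at 10 h and F56H6.2 reaches 2.46 at 12 h.

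Ordering by p and not by size shared 3 genes with the 20 above, W09G3.1, C35C5.9 and pfas-1. The 10 named genes with the lowest p, singled out after their values were seen, were W09G3.1, C35C5.9, pfas-1, T16G1.7, K09F6.5, Y43C5A.3, C24H11.2, vpat-1, ZC132.11 and T19H12.3, each at limma adjusted p = 0.210. C24H11.2 had -1.32, -1.12 and -0.99 at 8, 10 and 12 h, against -0.11, -0.06 and 0.08 at 2, 4 and 6 h. The gap between its windows was wider than the range inside either of them. In the other direction vpat-1 had 0.66, 0.50 and 0.66 at 8, 10 and 12 h, against -0.52, -0.94 and -0.39 at 2, 4 and 6 h, a difference of 1.22 (SE 0.20). ZC132.11 was as level inside the windows, with 0.53, 0.53 and 0.72 late, against -0.54, -0.51 and -0.31 early.

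Of the metabolic lists, the one of purine enzymes held the member with the largest difference. Cells build purines step by step in de novo synthesis, recover them from nucleosides and bases by salvage, and break the surplus down toward uric acid. pfas-1, for the de novo enzyme phosphoribosylformylglycinamidine synthase, had -1.12, -1.46 and -0.96 at 8, 10 and 12 h, against 0.82, 0.70 and -0.10 at 2, 4 and 6 h. Its difference was -1.65 (SE 0.27; limma adjusted p = 0.210, with 0.0524 to 0.624 over the alternatives), or 3.14-fold if the base is 2. The largest step of pfas-1 lay between 6 and 8 h, and the 3 late values lay close together, with an SD of 0.25.

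The next 3 members by size belong to purine salvage and breakdown. pnp-1, for purine nucleoside phosphorylase, which frees the base from a nucleoside, had -0.51, -1.23 and -1.31 at 8, 10 and 12 h, against 1.11, 0.34 and -0.60 at 2, 4 and 6 h (difference -1.30, SE 0.42; limma adjusted p = 0.348). Its 6 h value lay just below its 8 h value, so the windows overlapped. xdh-1, for xanthine dehydrogenase, which makes uric acid, had -0.17, -0.74 and -0.75 at 8, 10 and 12 h, against 1.09, 0.21 and 0.10 at 2, 4 and 6 h, without overlap (difference -1.02, SE 0.30; limma adjusted p = 0.322). gda-1, for a guanine deaminase, had -0.77, -1.19 and -1.21 at 8, 10 and 12 h, against 0.22, -0.12 and -0.77 at 2, 4 and 6 h (difference -0.83, SE 0.27; limma adjusted p = 0.361). In each of these 3 the 6 h value already lay well below the 2 h value, and the 10 and 12 h values lay lower still. The straight line over 2 to 12 h called pnp-1 (limma adjusted p = 0.0239), xdh-1 (0.0331) and gda-1 (0.0465), and these are the lowest of their alternatives, whose highest were 0.716, 0.678 and 0.738.

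Of the 9 measured members of the purine list, 0 passed in either direction, 4 had all late values below all early ones and 0 had them above, against 8.35% and 7.56% of all features. The list median was -0.34, against 0.01 for all features. The other 5 members had differences from -0.34 to 0.37, so the list did not go one way throughout. The highest of them, 0.37, was that of adk-1, for the salvage enzyme adenosine kinase, chosen here after its value was seen.

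Heat-inducible HSP70 lay lower in the late hours as well. F44E5.4 had 0.10, -1.19 and -0.61 at 8, 10 and 12 h, against 0.91, 1.64 and 0.80 at 2, 4 and 6 h (difference -1.69, SE 0.35; limma adjusted p = 0.260). F44E5.5 had 0.12, -1.02 and -0.01 at 8, 10 and 12 h, against 0.83, 1.29 and 0.37 at 2, 4 and 6 h (difference -1.13, SE 0.35; limma adjusted p = 0.334). Both were highest at 4 h and lowest at 10 h, and all late values lay below all early ones. They are adjacent, near-identical copies, and a probe of one may also catch the other. They were the only measured genes of the chaperone list, which goes by gene names, so that list says nothing beyond them. Chaperone genes under names that the list does not hold were not looked for. At 0 h both read -4.98, the file's floor after centring, and the sign of all values here was set by that reading.

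F19B2.5 and its neighbour F19B2.6 also had late values below all early ones. F19B2.5 had -0.32, -1.43 and -1.09 at 8, 10 and 12 h, against 1.41, 0.82 and -0.10 at 2, 4 and 6 h (difference -1.66, SE 0.41; limma adjusted p = 0.260), and -3.75 at 0 h. F19B2.6 had -0.00, -0.53 and -0.03 late, against 0.07, 0.78 and 0.09 early, a difference of -0.50. The difference of F19B2.6 rests on the 4 h and 10 h arrays, and its other values were close to 0.

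The T16G1 genes, neighbours on chromosome V, had late means below their early means. T16G1.7 had -2.32, -3.08 and -2.59 at 8, 10 and 12 h, against -1.43, -1.23 and -1.14 at 2, 4 and 6 h (difference -1.40, SE 0.23; limma adjusted p = 0.210). Its early values were close together and its largest step lay between 6 and 8 h. T16G1.4 had -1.07, -2.40 and -1.38 late, against 0.00, 0.02 and -1.10 early, a difference of -1.26 with overlap at 6 and 8 h. T16G1.6 had -1.17, -1.44 and -1.49 late, against -0.43, -0.38 and -1.13 early, a difference of -0.72 without overlap. T16G1.6 had thus reached nearly its late level at 6 h, when T16G1.7 had not. Of the 4 measured members 0 passed, 2 lay without overlap below and 0 above (8.35% and 7.56% of all features), and the median was -0.99. The remaining member, T16G1.9, differed by -0.32 with overlap.

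**Figure D3:**
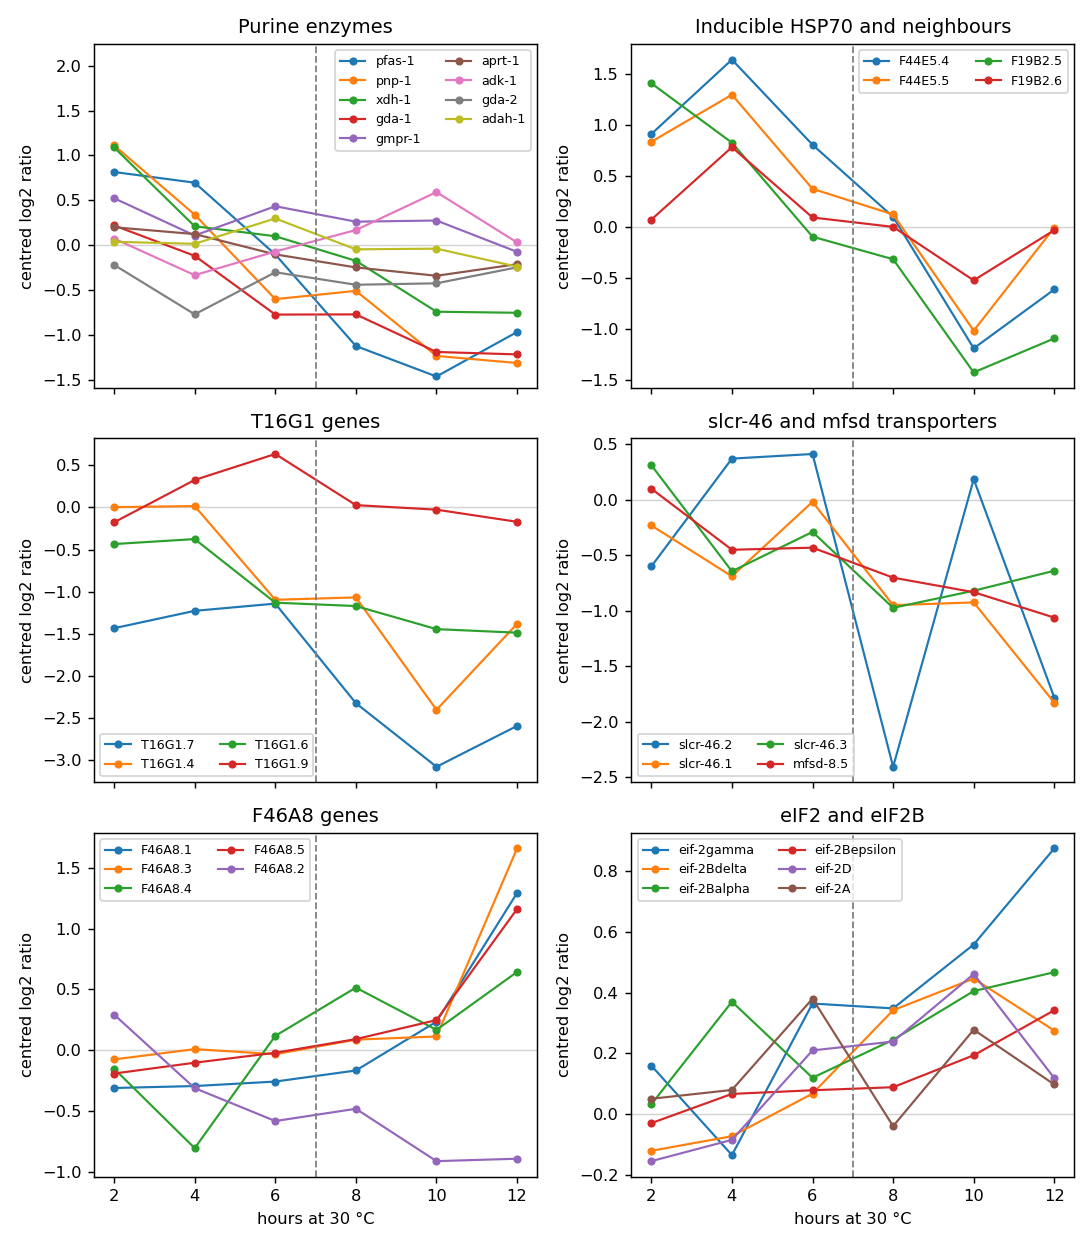
Centred log2 ratio by hours at 30 °C, 1 array per point, for 6 groups of genes. The dashed line lies between the early and the late hours. pfas-1 and T16G1.7 have their largest step down between 6 and 8 h, pnp-1 and gda-1 theirs among the early hours, and 3 of the 5 F46A8 genes shown stand out at 12 h alone.

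Several lists of transporters and hydrolases had medians below 0, with 0 members past the test in any of them. Their counts without overlap stand beside 8.35% below and 7.56% above over all features. Solute carriers, which move small molecules across membranes, had a median of -0.39 over 11 measured genes (-0.25 without the 12 h array), 2 of them without overlap below and 0 above. A further list of mitochondrial and letter-named carriers had a median of -0.09 over 10, with 3 below and 1 above. Genes of the secretory pathway had one of -0.06 over 10, with 0 either way. The carrier median was -0.003 without the 12 h array, and the secretory one was 0.02 without 4 h. slcr-46.1 had -0.95, -0.93 and -1.83 at 8, 10 and 12 h, against -0.23, -0.69 and -0.02 at 2, 4 and 6 h (difference -0.92, SE 0.29), and mfsd-8.5 had -0.70, -0.83 and -1.06 late, against 0.10, -0.45 and -0.43 early (difference -0.60, SE 0.21). slcr-46.3 differed by -0.60 with overlap. slcr-46.2 rests on 3 probes and was scattered, with -2.41, 0.18 and -1.78 late, against -0.60, 0.37 and 0.41 early, and its sign turned in 2 of its 17 alternatives.

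Carboxylesterases, a family that splits esters, had a median of -0.31 over 23 measured genes, 17 of them below 0, with 3 without overlap below and 0 above (8.35% and 7.56% of all features). Without the 12 h array the median was -0.175. cest-9.1 had -1.06, -1.46 and -1.32 at 8, 10 and 12 h, against -0.41, -0.63 and -0.45 at 2, 4 and 6 h (difference -0.78, SE 0.18; limma adjusted p = 0.260). The pseudogene cest-29 had a larger difference, -1.14 (SE 0.48), but its 8 h value of -1.10 lay above its 6 h value of -1.55. cest-1.2 (-1.01) and cest-17 (-0.72) overlapped likewise.

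All 7 measured lysosomal genes had a late mean below the early mean, with a median of -0.26. With 1 array left out that median ran from -0.46 (without 4 h) to -0.18 (without 12 h). Of the 7 genes, 1 was without overlap, where 8.35% of all features lay so below and 7.56% above. The 7 include lgmn-1, for a legumain-like protease (-0.68, SE 0.30), ctsa-3.1, of the cathepsin A family (-0.61), and cpr-9, for a cathepsin B-like protease (-0.39), the one without overlap. Genes for zinc and heme transport had a median of -0.27 over 12 measured, 10 of them below 0, with 2 without overlap below and 0 above. Without the 6, 8 or 12 h array that median was -0.17, -0.12 or -0.15. The largest was zipt-13, for a zinc transporter, with 0.04, -0.09 and -0.72 late, against 0.80, 0.10 and 0.26 early. Serine proteases, inhibitors and related names, a list drawn up from names present on the array, had a median of -0.25 over 21 measured (-0.14 without the 10 h array), with 4 without overlap below and 1 above. spig-13 led it with -0.38, -0.60 and -1.35 at 8, 10 and 12 h, against 1.26, 0.35 and -0.17 at 2, 4 and 6 h (difference -1.26, SE 0.39; limma adjusted p = 0.334). The straight line over 2 to 12 h called spig-13 (limma adjusted p = 0.0184, the lowest of its alternatives, whose highest was 0.716). In spig-10 (-0.95) and spig-1 (-1.005), the 12 h array held by far the lowest value, with -1.42 and -1.92.

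Of the 49 lists with at least 4 measured genes, 27 had a median above 0 and 22 below, and 0 genes of any list passed the test. Translation factors had a median of 0.18 over 8 measured genes, 7 of them above 0, with 2 without overlap above and 0 below, where all features had 7.56% above and 8.35% below. eif-2gamma, for a subunit of the initiation factor eIF2, had 0.35, 0.56 and 0.87 at 8, 10 and 12 h, against 0.16, -0.13 and 0.36 at 2, 4 and 6 h (difference 0.46, SE 0.21; limma adjusted p = 0.482). eif-2Bdelta, for a subunit of the exchange factor that recharges eIF2, had 0.34, 0.45 and 0.28 late, against -0.12, -0.07 and 0.07 early (difference 0.40, SE 0.17; limma adjusted p = 0.446). Neither difference exceeded 1 log2 unit, and eif-2gamma overlapped, by 0.36 at 6 h and 0.35 at 8 h.

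psme-4, for a proteasome activator, was the one gene of its list whose late values all lay above its early ones. It had 0.85, 0.90 and 1.16 at 8, 10 and 12 h, against 0.11, 0.23 and 0.41 at 2, 4 and 6 h (difference 0.72, SE 0.18; limma adjusted p = 0.260, with 0.0708 to 0.655 over the alternatives). The other 3 proteasome and ubiquitin genes were usp-4 (0.73, high at 8 h alone), rnf-126 (-0.25) and rpn-13 (-0.23, without overlap below). Over all features 7.56% lay above and 8.35% below without overlap. The median of these 4 genes was 0.25, and 0.06 without the 8 h array. Genes of mitochondrial import and proteolysis had a median of 0.01 over 7 measured, with 2 without overlap above and 0 below. Their differences ran from -0.50 to 0.48, and the median turned its sign in 2 of 10 alternatives. The 2 Lon proteases, named for their size, differed in sign. lonp-1, the mitochondrial one, had 0.42, 0.20 and 0.50 late, against -0.45, 0.06 and 0.07 early (difference 0.48, SE 0.21). lonp-2, the peroxisomal one, had -0.97, -1.11 and -1.59 late, against -0.66, -0.26 and -1.25 early, with overlap (difference -0.50, SE 0.28).

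PALS proteins, a family tied to the response to intracellular pathogens, had a median of 0.10 over 18 measured genes (0.04 without the 4 h array and 0.04 without 12 h), with 2 without overlap above and 0 below, against 7.56% and 8.35% of all features. pals-26 had 0.88, 0.82 and 1.57 at 8, 10 and 12 h, against -0.78, 0.77 and -0.01 at 2, 4 and 6 h (difference 1.09, SE 0.39; limma adjusted p = 0.379), its 4 h value coming close to the late ones. pals-14 had 0.06, 0.31 and 0.77 late, against -0.28, -0.28 and -0.15 early (difference 0.62, SE 0.21). The F46A8 genes on chromosome I had a median of 0.61 over 7 measured, 4 without overlap above and 0 below. The 12 h array carried them, with 1.66 in F46A8.3, 1.29 in F46A8.1 and 1.16 in F46A8.5, against early values between -0.31 and 0.01 in these 3 genes. Without the 12 h array the list median was 0.13.

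The machinery of gene expression and respiration stayed near the middle. Splicing factors had a median of -0.00 over 24 measured genes (0 above and 2 below without overlap), the respiratory chain and its assembly 0.03 over 24 (1 above and 0 below), and nucleolar ribosome assembly 0.06 over 7 (0 above and 1 below). In the respiratory list ndua-2, for a complex I subunit, stood out with 0.01, 0.97 and 0.85 late, against -0.13, -0.30 and 0.24 early (difference 0.68, SE 0.29). Transfer RNA genes had a median of 0.14 over 59 measured (7 above and 4 below; median 0.07 without the 12 h array and 0.09 without 4 h), and pseudogenes 0.06 over 316 (29 above and 17 below). Over all features 7.56% lay above and 8.35% below without overlap.

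Gene classes of the nervous system and of reproduction were measured as markers of other tissues. Neuropeptides and their receptors had a median of 0.09 over 18 measured genes, with 3 without overlap above and 0 below (7.56% and 8.35% of all features), led by frpr-21 (0.998, SE 0.36). Genes with chemoreceptor names had a median of -0.10 over 23, with 3 above and 3 below, among them srdh-1 (-1.11), srlf-7 (-1.10) and srlf-6 (1.09). The srlf genes thus went both ways. Yolk, eggshell and uterus genes had a median of -0.13 over 6 measured, sperm genes 0.11 over 6 and germline small RNA genes 0.04 over 10. With 1 array left out these medians ran from -0.00 to 0.17 for neuropeptides, -0.16 to -0.09 for chemoreceptor names, -0.21 to -0.10 for yolk, eggshell and uterus and -0.01 to 0.31 for sperm. The 6 yolk, eggshell and uterus genes differed by -0.84 to 0.45, with 4 below 0 and 2 above. The lowest of them, ule-4, for a uterine lumen protein, had -1.34, -0.48 and -0.64 late, against 0.12, 0.19 and -0.23 early (difference -0.84, SE 0.26; limma adjusted p = 0.334). Muscle was represented by 2 genes (median -0.38), the intestine by cpr-9 alone and the cuticle by ptr-25 alone (0.38). The part that tissue make-up has in the differences above was not tested.

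**Figure D4:**
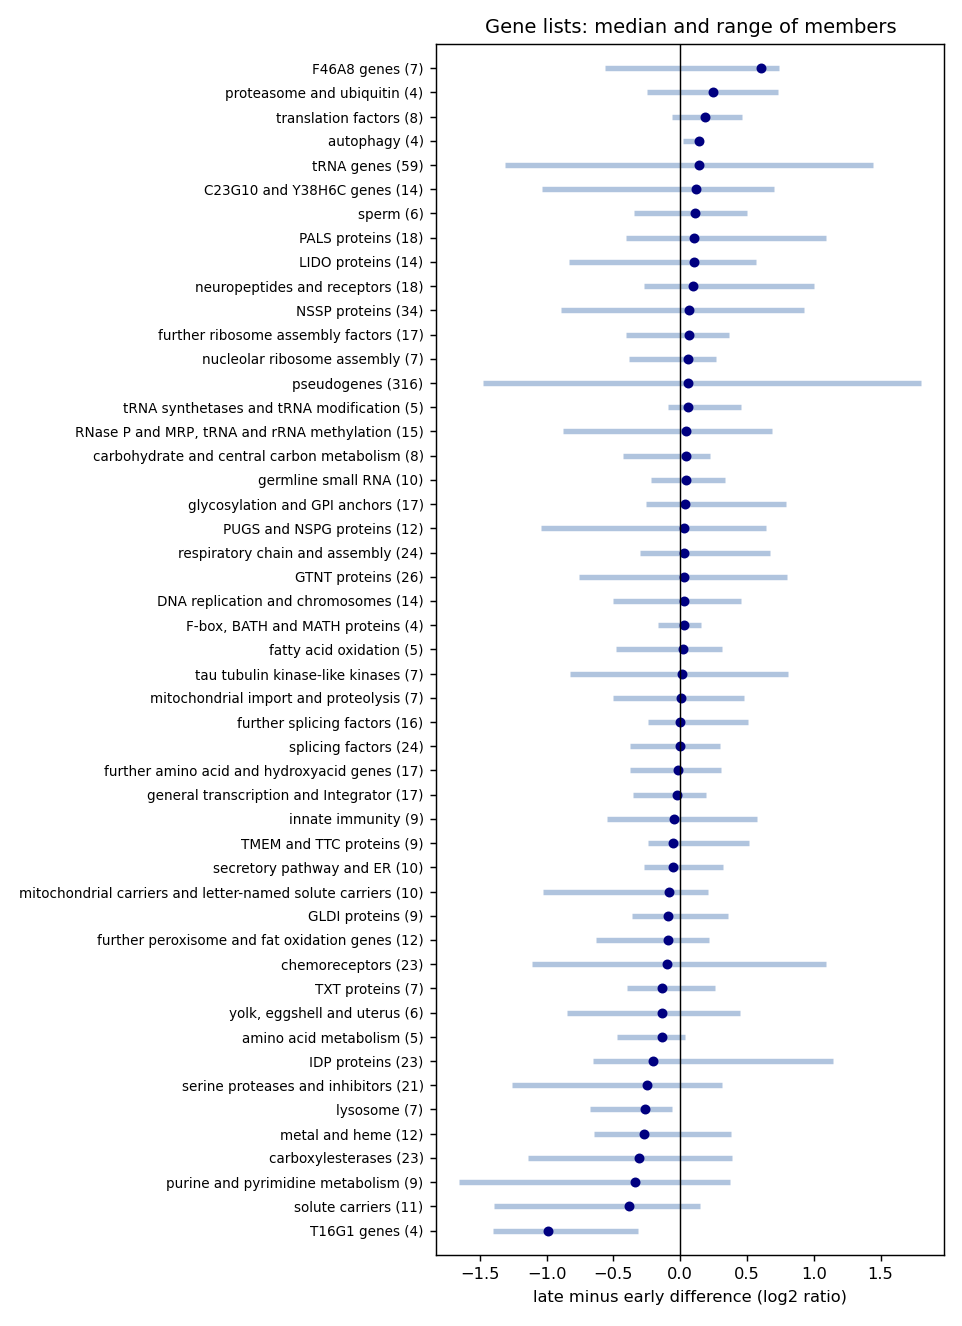
Late minus early difference for the 49 gene lists with at least 4 measured genes (their number in parentheses), as the median over members (points) and the range from the lowest to the highest member (bars), in log2 ratio units. T16G1 genes have the lowest median, -0.99, and F46A8 genes the highest, 0.61.

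The largest step lay at the border between 6 and 8 h for some of these features and elsewhere for others. For each of the 79 late-higher features without overlap and of at least 1 log2 unit, the interval with the largest upward step was 2 to 4 h in 23, 4 to 6 h in 13, 6 to 8 h in 29, 8 to 10 h in 4 and 10 to 12 h in 10. For the 151 late-lower features, the largest downward step fell between 2 and 4 h in 25, 4 and 6 h in 24, 6 and 8 h in 42, 8 and 10 h in 49 and 10 and 12 h in 11. Thus 32.5% of the late-lower features had it between 8 and 10 h, against 19.2% of all features with a late mean below the early mean. For the late-higher features that share was 5.06%, against 16.5%. The values that chose these sets also shape the steps, so this is a description with no test. Of the 79, 17 went up in every interval (21.5%), against 0.984% of all features with a late mean above the early mean. Of the 151, 32 went down in every interval (21.2%), against 1.61% of all with a late mean below. A feature that goes one way in every interval cannot have overlapping windows. Choosing sets without overlap therefore raises these shares by itself.

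The 0 h array, used by neither window, shows which of the differences lead away from the values at 0 h. It is 1 array, so these are counts with no test. Of the 150 late-lower features with a 0 h value, 103 stood at 0 h above even the early mean (68.7%), 35 between the means, and 12 below the late mean (8%). T22F3.11 (1.93 at 0 h), C35C5.9 (1.27), T05E12.3 (1.56), pfas-1 (0.96) and T16G1.7 (2.07) were of the first kind. Among all features with a late mean below the early mean, 49.4% were of the first kind and 33.9% of the last. The 150 were chosen for a gap of at least 1 log2 unit, and the width of the gap itself affects where 0 h falls. The shares are thus not like for like, and the same holds for the late-higher features.

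In the 12 late-lower features with a 0 h value below the late mean, the early hours were highest and the late hours lay between them and 0 h. Their named members were F44E5.4, F44E5.5, F19B2.5, M05D6.1, B0222.5, F21C10.1, F32A5.4 and R07E5.15, chosen by this criterion after their values were seen. F21C10.1 had a late mean of -0.43 and an early mean of 0.58, with -3.19 at 0 h. Of the 78 late-higher features with a 0 h value, 47 stood at 0 h below the early mean (60.3%), 23 between the means and 8 above the late mean (10.3%), against 56.5%, 16.8% and 26.8% of all features with a late mean above the early mean. The named genes among these 8 were C01G10.4, C50C3.5, F54F2.6 and Y49G5A.1, whose late means lay between the early mean and the 0 h value.

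**Figure D5:**
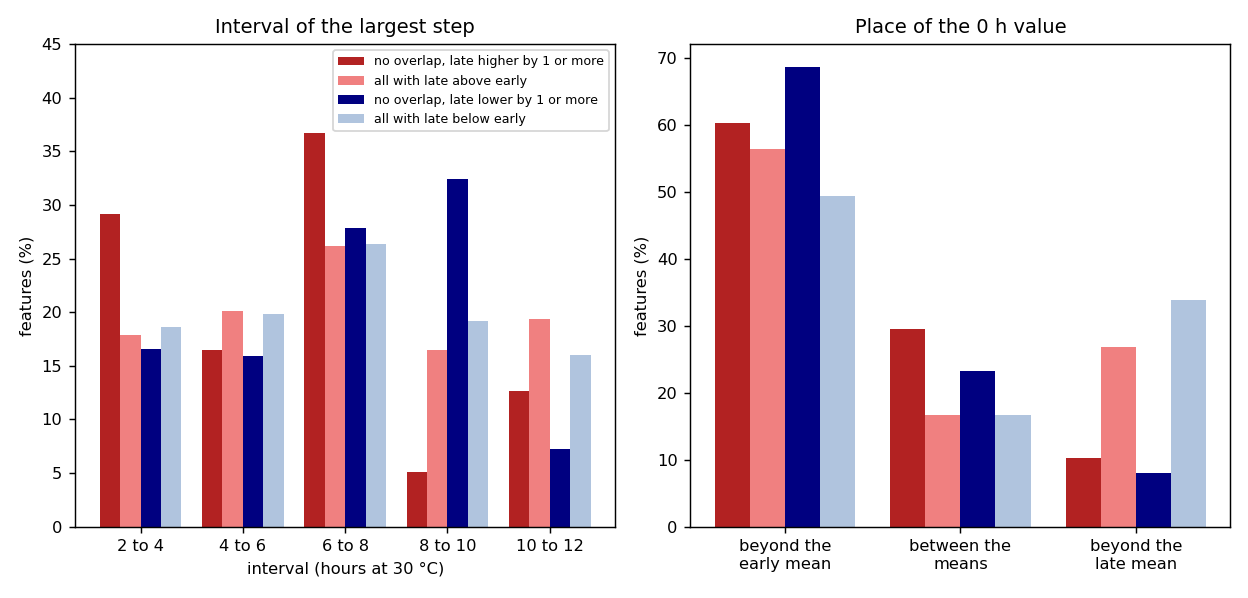
Left, share of features (%) by the interval that holds their largest step in the direction of the difference; right, share by the place of the 0 h value relative to the late and early means. Dark bars are the 79 late-higher and 151 late-lower features without overlap and of at least 1 log2 unit, and light bars are all features with a difference of the same sign. The dark blue bar at 8 to 10 h reaches 32.5% and its light bar 19.2%.

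A size of at least 0.5 log2 units, set after the data were seen, left 403 named genes without overlap. Among them, 16 pairs were immediate neighbours in the WBcel235 gene table, counting all its protein-coding genes and pseudogenes, on the array or not. In 11 pairs both genes were lower late, in 2 both were higher and in 3 they went opposite ways. The lower pairs include T16G1.7 with T16G1.6, F44E5.4 with F44E5.5, F19B2.6 with F19B2.5, C35C5.8 (-0.58) with C35C5.9, Y43C5A.2 (-0.55) with Y43C5A.3 (-1.56), F07C6.3 (-1.44) with F07C6.2 (-0.95) and M05D6.1 (-1.21) with M05D6.3 (-0.83). Near-identical neighbours can share signal on a probe, and probe sequences were not used here. On chromosome V, idpc-6 lay higher late between 2 lower neighbours of its own name class. idpc-6 had 1.45, 1.86 and 0.70 at 8, 10 and 12 h, against -0.05, 0.20 and 0.41 at 2, 4 and 6 h (difference 1.15, SE 0.30), whereas idpc-5 differed by -0.63 and idpc-7 by -0.57.

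By chromosome, of the 73 named late-lower genes, 30 lie on chromosome V (41.1%), which holds 19.8% of the 5377 named genes tested, and 3 on chromosome I (4.11%), which holds 17.2%. Of the 44 late-higher genes, 13 lie on chromosome V (29.5%) and 10 on chromosome IV. Chromosomes are those of the WBcel235 gene table. Neighbours that go together are counted singly here, and no test was made.

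Some transcripts were read in one window alone and so could not enter the comparison. Values were present on all 3 late arrays and on no early array for 27 features, 13 of them named genes, and on all 3 early arrays and no late array for 29 features, 11 of them named. A blank cell is not a low level, since the rule that blanked cells is unknown here. R11D1.2, with 1.08, 1.92 and -0.49 at 8, 10 and 12 h and blanks before, is an example of the first kind, and K09F6.7, with blanks late and 1.94, -0.38 and -0.93 at 2, 4 and 6 h, of the second, both chosen after their values were seen.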

How the data were processed

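The authors deposited a log ratio, used here as a log2 ratio, for the probes of each two-colour array, with 13.1% to 15.9% of the cells of a heated array blank. That the base is 2 was taken from the range of the deposited values. How spots were scanned, corrected for background, normalized, dyed and blanked is not given in the sources that were available. Deposited values stop at -5 and 5. The column medians lay between 0.024 and 0.056 on the heated arrays, and 12 of the tested features touched a limit there.

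Each array was centred on its median. Of the 19200 probes, 7900 carry 1 gene name and 11300 none. Names were updated through the WBcel235 gene table for 7872 probes, and 28 kept the older name. Probes of a gene were averaged where several existed (316 genes). Features with values on all 6 heated arrays entered lmFit and eBayes (limma 3.58.1, R 4.3.3), late minus early, two-sided, with Benjamini-Hochberg adjustment over 13478 features at 0.05. Tables and figures were made in Python 3.11.15 with pandas 2.3.3, numpy 2.4.6 and matplotlib 3.10.9. The fit was tested on simulated data with the spread of the real residuals. It recovered 30 of 100 features changed by 1 log2 unit and 84 of 100 changed by 2, with 3 false calls. In that simulation most changes of 1 log2 unit were thus missed.

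The comparison and the 69 gene lists were chosen with earlier results of these data known. Of the lists, 9 had no measured gene, 11 had 1 to 3 and 49 had at least 4. Named are the genes that pass in each direction and, as none did, the 10 largest differences each way among genes without overlap, up to 4 members of each list, and the 2 HSP70 genes. Any other gene is marked as picked once its values were known. Alternatives were uncentred values, centring within 32 print blocks, quantile normalization, equal median absolute deviations, tolerance of blanks, single probes, limits set to missing, a robust prior, a straight line over 2 to 12 h, hour within the window as a covariate, 10 and 12 h against 2 and 4 h, and each array left out. Promoter motifs were not searched, since no promoter sequences were used here.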

Additional observations from a re-analysis of the deposited data

How the results depend on the processing

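Of the 17 alternatives, those that called any feature with limma were the straight line over 2 to 12 h, with 51 higher and 105 lower, and 10 and 12 h against 2 and 4 h, with 0 higher and 1 lower. The cause of the calls under these 2 alternatives was not tested. Leaving out each array in turn gave 0 to 0 calls in either direction, and the remaining alternatives gave 0 as well. Between 924 and 1971 features had an unadjusted p under 0.05, depending on the alternative. The lowest adjusted p was 0.624 without the 2 h array, 0.0759 without 6 h and 0.0555 with the hour within the window as a covariate. For 28 genes followed through the alternatives, 475 of 475 values kept their direction, and 20 were past the threshold, 19 of them with the straight line. These genes were picked from the same values, by size without overlap or by low p. For windows without overlap most alternatives, such as leaving out an array, cannot turn the sign. The count is therefore no measure of stability. Of the 49 list medians, 24 kept their sign in all 10 alternatives run on them. Among the list medians that turned were splicing factors (6 of 10), nucleolar ribosome assembly (3), mitochondrial import and proteolysis (2) and the secretory pathway (1). Sperm (1), respiratory chain (1), germline small RNA (1) and neuropeptides (1) also turned. With 1 array left out, features without overlap and of at least 1 log2 unit, an alternative added after seeing the data, numbered 69 to 183 higher and 114 to 304 lower. No paired analysis was possible because there is a single array per hour. Signal over background was not used here, so which ratios come from dim spots is unknown.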
